A study of Danio rerio with 340 samples.

Results

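The zebrafish C-reactive protein genes crp2 (ENSDARG00000056462) and crp3 (ENSDARG00000042613) were followed across strains and doses in single whole larvae. They are 2 of 31658 genes in the count table. The genes were selected on measured values, namely levels that differed between strains among untreated larvae, so levels at dose 0 are given below as a description, with no test. Tests were restricted to dose effects and to differences between exposed larvae. The control larvae of the dose effects are those whose levels led to the choice.

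The data hold 340 larvae at 5 dpf, each from an embryo kept in compound from 5 to 6 hpf onwards, or kept without compound (dose 0). In the experiment with valproic acid, an antiepileptic drug that inhibits histone deacetylases, the strains AB, TU, RW, WIK and PET received 0, 1, 5 or 20 µM, with 8 larvae per strain and dose. In the experiment with hydroxyurea, which blocks DNA synthesis, AB, TU, RW and PET received 0, 1.3, 6.6 or 33 mM, with 4 to 7 larvae in each group. In the experiment with warfarin, an anticoagulant that blocks vitamin K recycling, the same 4 strains received 0, 150 or 300 µM, with 5 to 7 larvae in each group. AB, TU, RW and WIK are wild-type laboratory strains, and PET is a pet shop stock. No transgene, mutation or further agent is named in the labels. Each experiment had its own controls, and nothing in the labels places the larvae of a strain in separate clutches, so strain and clutch cannot be told apart, and p-values measure the spread between single larvae.

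C-reactive protein is a short pentraxin, a secreted protein of identical subunits joined in a ring. In mammals it binds phosphocholine on microbes and damaged cells and starts the classical complement pathway, and the human gene is a classic acute phase gene that hepatocytes switch on in response to inflammatory cytokines. Zebrafish have several crp genes next to each other on 1 chromosome. In the RefSeq gene table (GRCz12tu, used for names and gene order only) crp2 and crp3 lie next to each other between crp1 and crp4, and crp5, crp6 and crp7 follow on the same side as crp4.

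Of the pentraxin genes looked for, only crp2 and crp3 were well detected. crp2 had at least 1 count in 338 larvae and crp3 in 336 larvae, with mean levels of 39.8 and 28.8 CPM (counts scaled to the size of each library). The other short pentraxins that matched the table were nearly silent in these libraries. crp1 had a count in 18 larvae, crp6 in 44 and crp7 in 202, with a mean of 0.906 CPM for crp7. The long pentraxins ptx3a and ptx3b, pattern recognition proteins that are made outside the liver in mammals, had a count in 186 and 47 larvae. crp4 and crp5 were not matched to a row of the table and were not analysed here. How reads shared by neighbouring copies were assigned is not given in the sources used here, so part of a count of crp2 or crp3 could come from another copy.

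Levels are CPM after TMM normalization, and 3′ RNA-Seq counts 1 end of each transcript. Total counts ran from 124136 to 14186334 per larva with a median of 2272278, and 3 counts correspond to 24.2 CPM in the shallowest larva and to 1.32 CPM in the median one. Depth differed between strains within an experiment. In the valproic acid experiment the median total was 6718420 in RW and 1053358 in PET, and in the hydroxyurea experiment it was 858850 in AB and 3375084 in TU. Once strain and dose means were removed, the correlation of log2 CPM with log10 total count was between −0.09 and 0.20 for both genes in all 3 experiments. It does not cover depth differences between strains or doses, which the removed means hold. Intervals and floors from counts cover counting error only.

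Among untreated larvae of the valproic acid experiment, the difference between the highest and the lowest crp2 level was largest in RW, and the ratio of the highest to the lowest was 82.4 in RW and 108 in WIK. RW had a lowest, median and highest level of 5.51, 160 and 454 CPM. The same values were 36.4, 70.8 and 220 CPM in TU and 1.82, 56.5 and 113 CPM in PET. AB, at 4.33, 22.9 and 43.0 CPM, and WIK, at 0.943, 22.7 and 102 CPM, had the lowest medians. All neighbouring strains in this order overlapped.

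In the untreated larvae of the other experiments, PET and TU were high in crp2 and AB and RW were low. In the hydroxyurea experiment the lowest, median and highest levels were 32.2, 64.2 and 105 CPM in PET and 11.2, 52.4 and 107 CPM in TU. AB had 2.66, 8.89 and 20.1 CPM, and the 4 RW larvae had 16.7, 74.7, 5.44 and 14.2 CPM. PET and AB did not overlap, while each strain overlapped with its neighbour in the order. In the warfarin experiment PET had 48.3, 64.5 and 95.7 CPM and TU had 23.7, 53.7 and 104 CPM. AB had 6.01, 14.0 and 18.5 CPM, and the 5 RW larvae had 8.84, 12.4, 13.5, 19.2 and 5.54 CPM. Here every PET and TU larva was above every AB and RW larva. RW thus held the highest median in one experiment and the lowest in another, and the groups of RW larvae came from separate experiments that cannot be told apart from clutches.

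**Figure D1:**
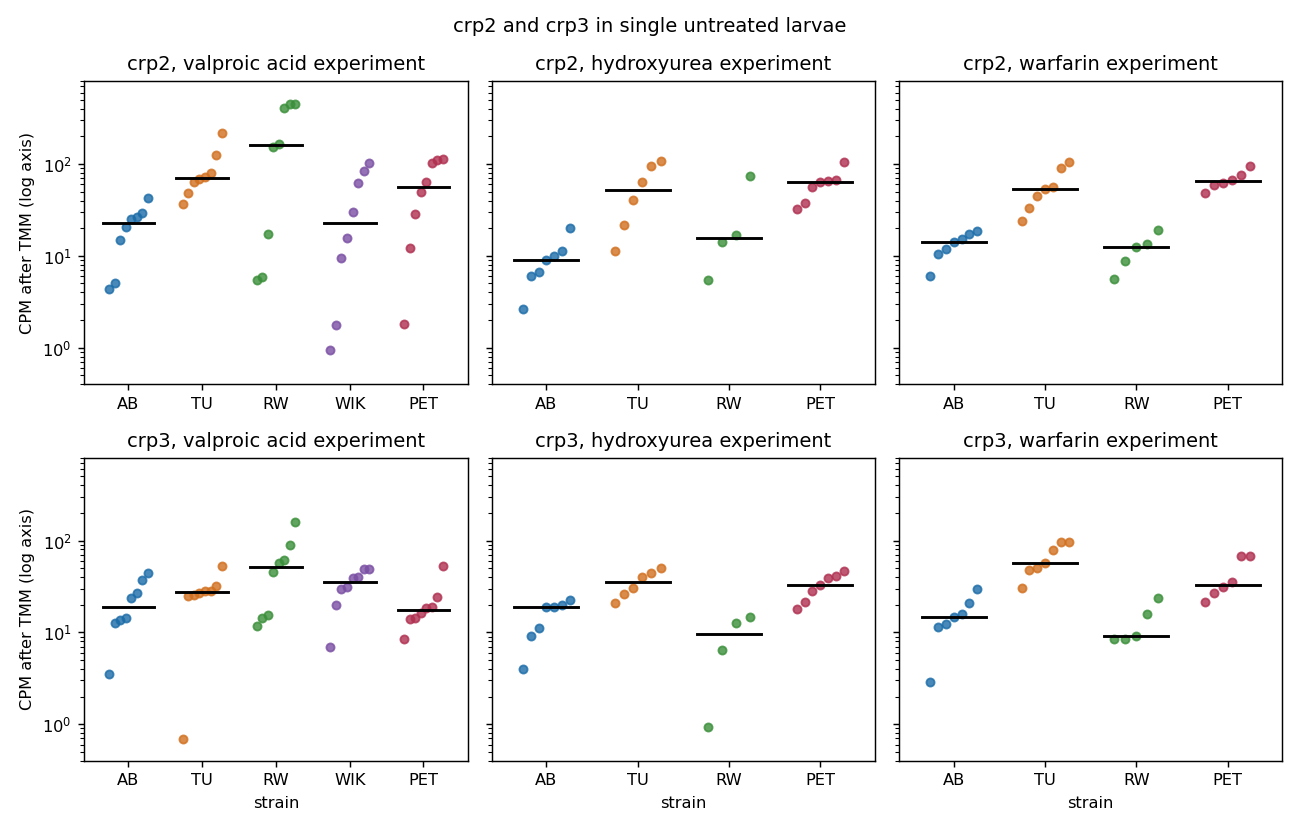
Level of crp2 (upper row) and crp3 (lower row) in each untreated larva, in CPM after TMM on a log axis, by strain in the 3 experiments. Points are larvae and black lines are medians. In RW crp2 runs from 5.51 to 454 CPM in the valproic acid experiment, while its highest larva in the warfarin experiment is at 19.2 CPM.

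In untreated larvae the distances between strain medians were smaller for crp3 than for crp2 in the valproic acid experiment. In the untreated larvae of the valproic acid experiment its lowest, median and highest levels were 11.6, 51.7 and 161 CPM in RW and 7.02, 35.2 and 49.3 CPM in WIK. TU had 0.687, 27.6 and 52.9 CPM, AB had 3.56, 19.1 and 44.9 CPM, and PET had 8.48, 17.5 and 52.7 CPM. PET, with rank 3 of 5 in the median of crp2 here, was the strain with the lowest median of crp3, and all 5 strains overlapped.

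In the hydroxyurea experiment crp3 was at 20.9, 35.3 and 50.5 CPM in untreated TU and at 17.8, 32.8 and 47.0 CPM in PET. AB had 3.98, 18.9 and 22.6 CPM, and the 4 RW larvae had 0.926, 14.6, 6.46 and 12.6 CPM. All 4 RW larvae lay below every TU and PET larva. In the warfarin experiment TU had 30.5, 57.3 and 97.4 CPM and PET had 21.4, 33.1 and 68.3 CPM. AB had 2.91, 14.6 and 30.1 CPM, and the 5 RW larvae had 8.44, 8.56, 9.11, 23.7 and 16.1 CPM. TU did not overlap with AB or RW, whereas PET overlapped with both.

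Single larvae of RW in the valproic acid experiment spread widely in crp2 below the highest dose. At 0 the 8 larvae had 17.4, 454, 153, 410, 453, 5.93, 166 and 5.51 CPM. The 3 larvae at 17.4, 5.93 and 5.51 CPM were also the 3 lowest in crp3, at 11.6, 14.5 and 15.5 CPM, against 46.0 to 161 CPM in the other 5. Their total counts ran from 3858725 to 9311839 and those of the other 5 from 3554460 to 8914550. Their 27 to 60 counts of crp2 stood against 454 to 2912. With a level of 30 CPM, chosen after the values were seen, 3 of 8 RW larvae were below it at 0, 2 of 8 at 1 µM, 4 of 8 at 5 µM and 8 of 8 at 20 µM.

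**Figure D2:**
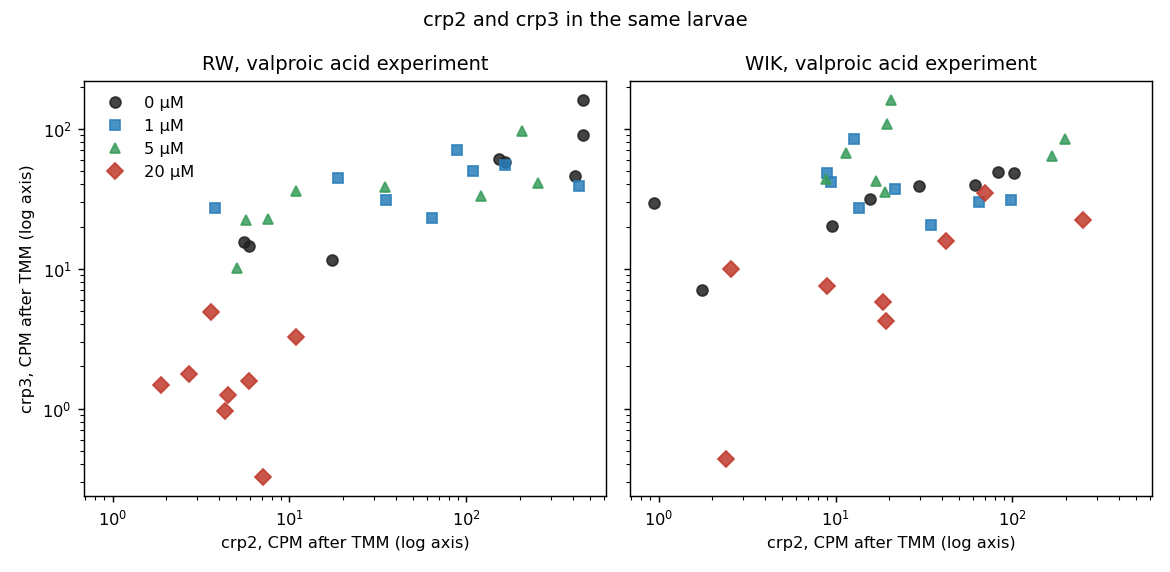
crp3 against crp2 in the same larvae of RW (left) and WIK (right) in the valproic acid experiment, both in CPM after TMM on log axes. Each symbol is a larva and its shape and colour give the dose. The 8 RW larvae at 20 µM lie at the lower left, with crp2 at or below 10.9 CPM and crp3 at or below 4.91 CPM, while 1 WIK larva at 20 µM has 249 CPM of crp2.

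The dose comparisons asked how exposure changed each gene within an experiment. crp2 and crp3 fell at the highest dose of valproic acid and of warfarin, and crp2 also fell at the highest dose of hydroxyurea. At none of the lower doses did either gene pass the test. All doses of an experiment were compared with the same control larvae. In whole larvae, fewer cells of a type and less RNA per cell cannot be told apart.

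Over the 40 larvae per dose of the valproic acid experiment, the median of crp2 was 45.8 CPM at 0, 28.8 at 1 µM, 23.2 at 5 µM and 7.01 at 20 µM. The median of crp3 was 26.0, 32.1, 32.3 and 4.29 CPM at the same doses. At 20 µM and with strain as a term, crp2 was lower by a log2 fold change of −2.05 (SE 0.37, adjusted p = 1.97e-06, edgeR's quasi-likelihood test). crp3 was lower by −2.35 (SE 0.27, adjusted p = 1.03e-13). When single strains were left out, which was added after the data were seen, the value of crp2 lay between −3.08 without WIK (adjusted p = 6.48e-12) and −1.41 without RW (adjusted p = 0.000889). At this dose 20.5% of 18192 tested genes passed the test, 11.5% in the lower direction. At 1 µM the log2 fold changes were −0.62 (SE 0.33) for crp2 and 0.22 (SE 0.24) for crp3, with adjusted p = 0.457 and 0.76, against 0.0055% of genes called. At 5 µM the log2 fold changes were −0.39 (SE 0.33) for crp2 and 0.27 (SE 0.24) for crp3, with adjusted p = 0.679 and 0.684, against 2.37% of genes called.

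Within strains, RW had the lowest log2 fold change at 20 µM for both genes. Its crp2 levels went from a median of 160 CPM at 0 to 4.39 CPM at 20 µM, where all larvae lay between 1.87 and 10.9 CPM. The fold between the medians was 36.4, and 5 of 8 exposed larvae were below every control. The log2 fold change of crp2 in RW was −5.36 (SE 0.77, adjusted p = 1.00e-08). For crp3 the medians were 51.7 and 1.52 CPM, a fold of 34.0, and each of the 8 exposed larvae lay under the lowest control, with a log2 fold change of −4.81 (SE 0.54, adjusted p = 2.14e-13). Because the level of RW at 0 in this experiment was part of what chose the genes, the size of this fall is not independent of the choice.

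The other strains fell less at 20 µM or did not pass the test. crp2 fell in PET by 2.86 on the log2 scale (SE 0.79, adjusted p = 0.00986) and in TU by 2.08 (SE 0.70, adjusted p = 0.0474). In AB its log2 fold change was −2.01 (SE 0.78, adjusted p = 0.132), with medians of 22.9 and 5.88 CPM. In WIK it was 0.43 (SE 0.65, adjusted p = 0.735), and WIK at 20 µM held a larva at 249 CPM beside 7 larvae from 2.42 to 70.2 CPM. Without that larva, an alternative added after the data were seen, the value in WIK was −0.69 (adjusted p = 0.57). crp3 passed the test in RW and in the other strains, and fell by 2.30 in AB (adjusted p = 0.00184), 1.96 in PET (0.0173), 1.51 in TU (0.0482) and 1.39 in WIK (0.0383) on the log2 scale. Without shallow larvae, those with a total count below 0.5 times the median, the calls in TU, PET and WIK were lost, with adjusted p = 0.172 and 0.604 for crp2 in TU and PET and 0.0853, 0.771 and 0.0902 for crp3 in TU, PET and WIK, and 1 of 8 PET larvae and 6 of 8 TU and WIK larvae were left at 20 µM. The call of crp3 was also lost in WIK with log10 total count as a covariate (adjusted p = 0.111). Of 21073 genes 5.8% passed the same test within AB, 6.94% within TU, 6.67% within RW, 12.1% within WIK and 6.77% within PET. AB held a larva with no count of crp2 at 20 µM, in which a level of up to 1.89 CPM is possible.

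**Figure D3:**
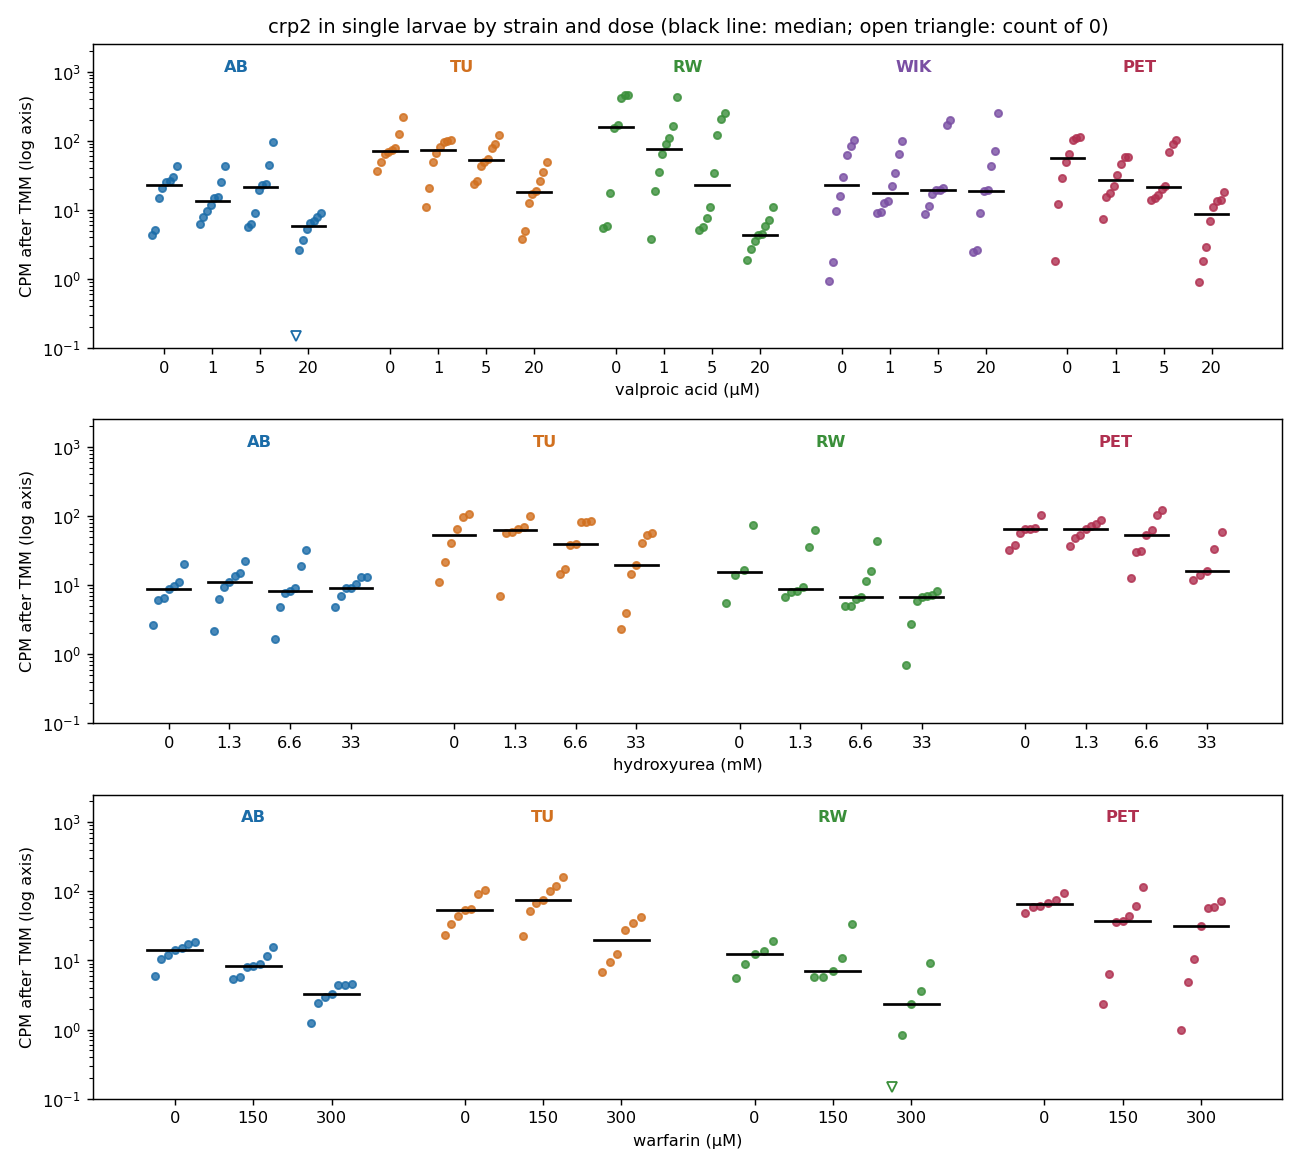
crp2 in each larva by strain and dose in the valproic acid (top), hydroxyurea (middle) and warfarin (bottom) experiments, in CPM after TMM on a log axis. Points are larvae, black lines are medians and open triangles mark larvae with a count of 0, drawn at the foot of the axis. In AB of the warfarin experiment all 7 larvae at 300 µM, at most 4.61 CPM, lie below the lowest control at 6.01 CPM.

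In the hydroxyurea experiment crp2 had medians of 26.9, 35.8, 18.0 and 9.72 CPM at 0, 1.3, 6.6 and 33 mM, over 24 to 28 larvae per dose. At 33 mM its log2 fold change was −1.18 (SE 0.27, adjusted p = 0.000325), with 22.8% of 15042 genes called and 12.5% called lower. crp3 had medians of 21.3, 18.5, 18.4 and 7.65 CPM and a log2 fold change of −0.59 (SE 0.28, adjusted p = 0.119). At 1.3 and 6.6 mM adjusted p was between 0.73 and 1 for both genes, with 0.00665% and 1.15% of genes called.

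Within strains at 33 mM, crp2 passed the test in RW only, and that call rested on 1 control larva. The 4 untreated RW larvae had 16.7, 74.7, 5.44 and 14.2 CPM. The 7 larvae at 33 mM ran from 0.706 to 8.28 CPM with a median of 6.73 CPM, and 2 of them were below every control. The log2 fold change was −2.26 (SE 0.57, adjusted p = 0.00447), and it was −0.95 (adjusted p = 0.529) without the control larva at 74.7 CPM. In TU and PET crp2 had log2 fold changes of −1.09 (SE 0.46, adjusted p = 0.172) and −1.19 (SE 0.50, adjusted p = 0.135). In AB, the strain with the lowest untreated median, it was 0.00 (SE 0.65, adjusted p = 0.999), with medians of 8.89 and 9.18 CPM. For crp3 the values were −0.68 in AB, −0.30 in TU, −0.77 in RW and −1.20 in PET, with adjusted p from 0.140 to 0.824. PET at 33 mM had 5 larvae. Without the larva that was highest in both genes, PET passed the test, with −1.64 (adjusted p = 0.0442) for crp2 and −1.71 (adjusted p = 0.0389) for crp3. Of 17236 genes 7.24% were called within AB, 6% within TU, 6.13% within RW and 9.42% within PET.

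**Figure D4:**
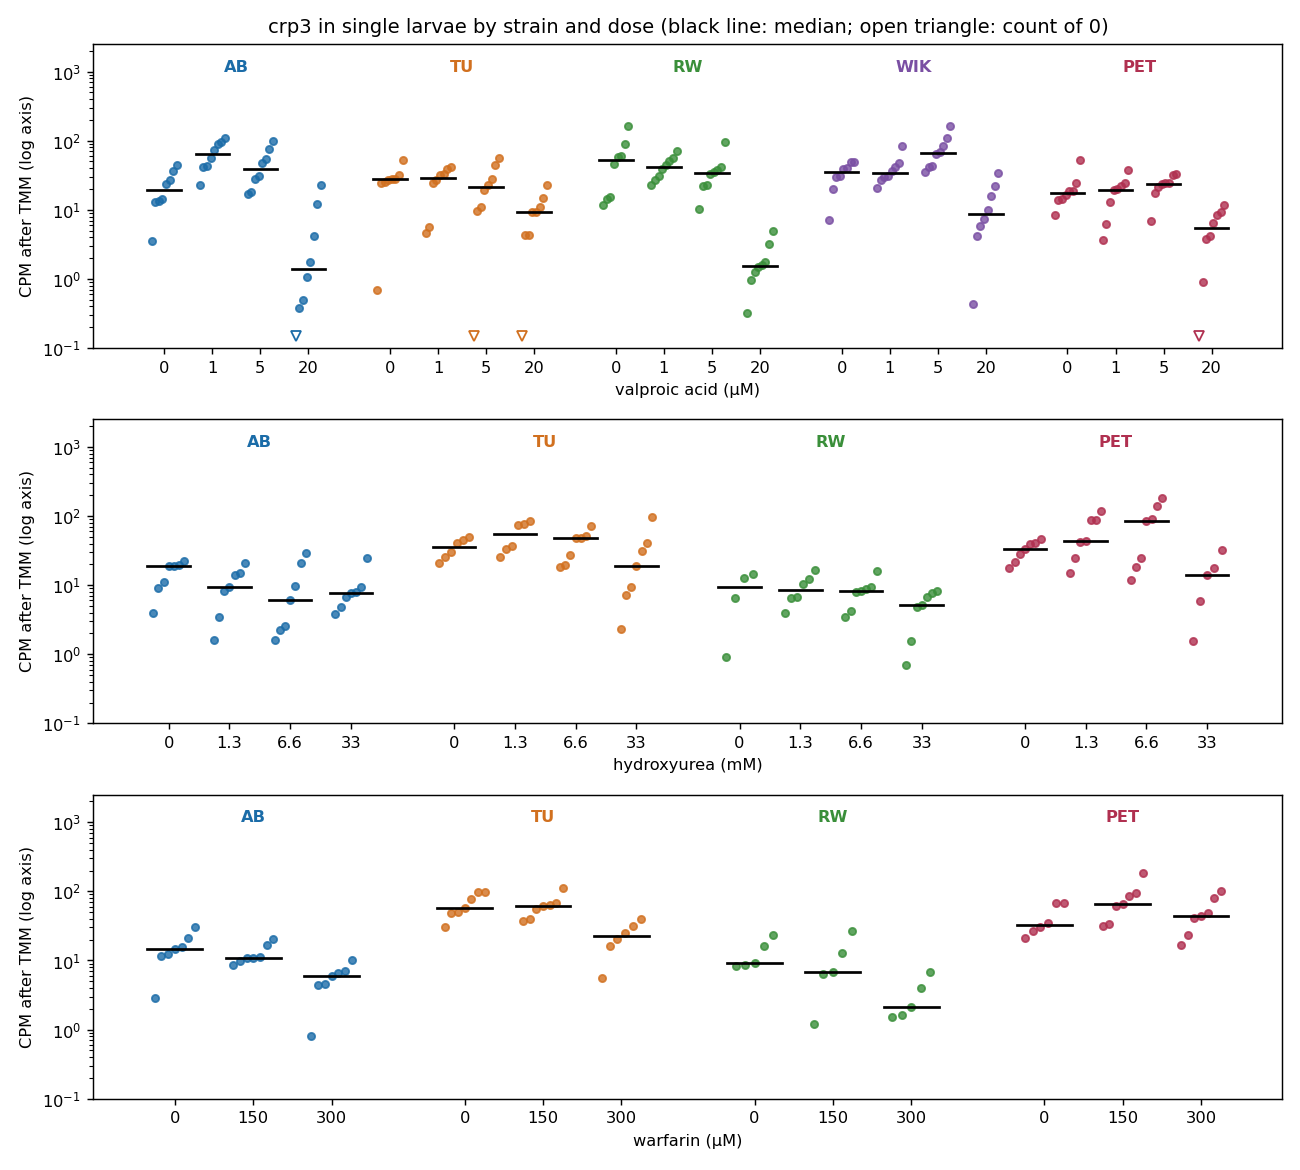
crp3 in each larva by strain and dose in the valproic acid (top), hydroxyurea (middle) and warfarin (bottom) experiments, in CPM after TMM on a log axis. Points are larvae, black lines are medians and open triangles mark larvae with a count of 0. In PET of the warfarin experiment the medians are 33.1, 66.6 and 44.1 CPM at 0, 150 and 300 µM, while in AB, TU and RW the median at 300 µM is the lowest of the 3.

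In the warfarin experiment the medians of crp2 over strains were 23.7, 19.1 and 4.85 CPM at 0, 150 and 300 µM. At 300 µM its log2 fold change was −1.41 (SE 0.27, adjusted p = 4.33e-05). crp3 had medians of 26.9, 32.9 and 10.1 CPM and a log2 fold change of −0.97 (SE 0.22, adjusted p = 0.000705). Here 9.6% of 13482 genes were called, 4.95% in the lower direction. When AB was left out, added after the data were seen, crp3 was at −0.81 (adjusted p = 0.0547). At 150 µM the log2 fold changes were −0.16 (SE 0.25, adjusted p = 0.876) and 0.05 (SE 0.21, adjusted p = 0.962), with 3.18% of genes called.

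Within strains at 300 µM, AB fell in both genes. Its crp2 levels were 6.01 to 18.5 CPM at 0 and 1.26 to 4.61 CPM at 300 µM, with no overlap, and the log2 fold change was −1.88 (SE 0.54, adjusted p = 0.034). crp3 fell by 1.39 on the log2 scale in AB (SE 0.40, adjusted p = 0.0321) and by 1.40 in TU (SE 0.39, adjusted p = 0.0242). Without shallow larvae, which left 3 TU larvae at 0 and 4 at 300 µM, TU had −1.12 (adjusted p = 0.333). In RW the 5 larvae at 300 µM had 0, 2.35, 3.59, 9.34 and 0.842 CPM of crp2, and 4 of 5 were below every control. The log2 fold changes in RW were −1.96 (SE 0.69, adjusted p = 0.177) for crp2 and −1.76 (SE 0.52, adjusted p = 0.0587) for crp3. In crp3 each of the 5 larvae lay under the lowest control. The share of all genes that separate in this way is not given here, so no fall is read from it. Leaving out single RW larvae gave −2.75 to −1.61 for crp2 and −2.28 to −1.52 for crp3, and it passed the test without the larva at 9.34 CPM for crp2 and without the larva at 6.78 CPM for crp3. PET had log2 fold changes of −1.02 (SE 0.45, adjusted p = 0.521) for crp2 and 0.24 (SE 0.36, adjusted p = 0.931) for crp3. Of 14826 genes 2.7% were called within AB, 3.03% within TU, 1.91% within RW and 0.884% within PET.

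Of the 22 tests within a strain below the highest dose, 0 passed for crp2 and 0 for crp3 in edgeR. At an unadjusted p under 0.05 there were 2 for crp2, both lower, and 6 for crp3, all higher. The share of all genes at that unadjusted threshold is not given here. Doses of a strain share their control larvae, so these tests are not independent, and no rise of crp3 is read from them. In DESeq2 0 passed for either gene, and 3 tests had no adjusted p. The lowest unadjusted p belonged to crp3 in AB at 1 µM valproic acid, where the median was 64.5 CPM against 19.1 CPM at 0 and the log2 fold change was 1.6 (SE 0.46, adjusted p = 0.324). In the valproic acid experiment 0.0427%, 0.00475%, 0.00475%, 0.00475% and 9.51% of genes were called at 1 µM within AB, TU, RW, WIK and PET, and 0.00949%, 0.199%, 0.0427%, 0.0902% and 7.7% at 5 µM. All 8 PET controls reached 0.5 times the median total count, against 2 of 8 PET larvae at 1 µM and 2 of 8 at 5 µM. The shares within PET therefore cannot be told apart from this difference in depth. With hydroxyurea 0.0348%, 0.435%, 0.0232% and 0.0812% were called at 1.3 mM within AB, TU, RW and PET, and 1.03%, 0.0754%, 0.058% and 0.725% at 6.6 mM. With 150 µM warfarin the shares were 0.391%, 0.735%, 0.479% and 0.465%.

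**Figure D5:**
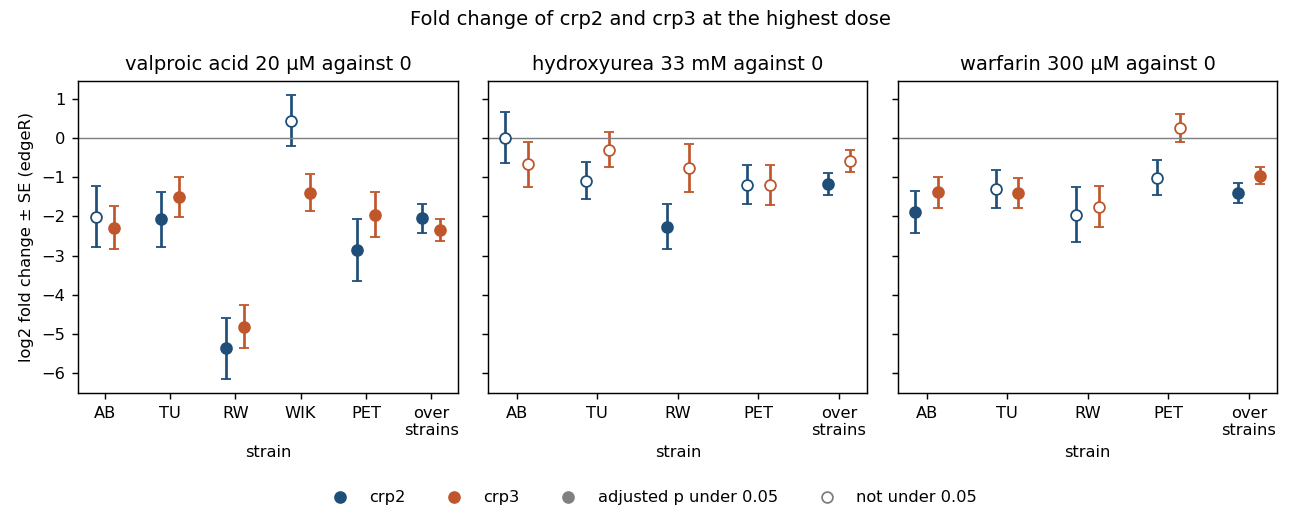
Log2 fold change at the highest dose against 0 with its SE, from edgeR, for crp2 and crp3 within each strain and over strains in the 3 experiments. Filled points have an adjusted p under 0.05. Values lie below 0 except for crp2 in WIK at 0.43, crp2 in AB of the hydroxyurea experiment at 0.00 and crp3 in PET of the warfarin experiment at 0.24, and the lowest are those of RW with valproic acid, −5.36 and −4.81.

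The larvae used to choose the genes were the untreated ones, so differences between strains were tested among exposed larvae, at each dose alone. Strains differed in crp3 at all 8 exposed doses and in crp2 at 7 of 8, the exception being 5 µM valproic acid (adjusted p = 0.26). Of all genes 44%, 49.1% and 33.7% were called at 1, 5 and 20 µM valproic acid, 16.1%, 24.3% and 26.1% at 1.3, 6.6 and 33 mM hydroxyurea, and 8.77% and 6% at 150 and 300 µM warfarin. Without shallow larvae crp3 had adjusted p = 0.0505 at 1 µM and 0.062 at 5 µM valproic acid, and with log10 total count as a covariate 0.0628 at 1 µM. As no label places the larvae of a strain in separate clutches, these tests compare other larvae of what may be the same clutches.

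In the hydroxyurea and warfarin experiments the strains kept 1 direction. In 40 of 40 contrasts of a strain with the mean of the others, over both genes and all exposed doses, TU and PET were above and AB and RW below, and 33 of 40 passed the test. Of all genes 14.8%, 7.23%, 1.1% and 4.06% were called in this contrast for AB, TU, RW and PET at 1.3 mM hydroxyurea, 25.6%, 4.39%, 5.35% and 3.41% at 6.6 mM, and 21.9%, 5.03%, 10.9% and 1.96% at 33 mM. With warfarin the shares were 1.54%, 6.8%, 0.87% and 1.5% at 150 µM and 1.44%, 3.82%, 1.52% and 1.64% at 300 µM. The contrasts of a gene at 1 dose are not independent of each other. Exposed AB larvae of the hydroxyurea experiment were shallow, with median crp2 counts of 8, 5 and 8 at 1.3, 6.6 and 33 mM. Of 7 AB larvae per dose, 0, 1 and 1 reached 0.5 times the median total count. AB enters every contrast of that experiment. In the warfarin experiment at 300 µM, crp3 in PET ranged from 16.6 to 102 CPM, in TU from 5.52 to 39.2, in AB from 0.809 to 10.1 and in RW from 1.54 to 6.78 CPM. PET did not overlap with AB or RW. The difference of PET from the others was 2.64 on the log2 scale (SE 0.29, adjusted p = 2.06e-10) for crp3 and 2.39 (SE 0.39, adjusted p = 1.58e-05) for crp2. RW was at −2.43 (SE 0.44, adjusted p = 0.000191) and −2.26 (SE 0.59, adjusted p = 0.0262). The test over strains gave adjusted p = 1.77e-11 for crp3 and 3.75e-07 for crp2 at 300 µM.

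At 33 mM hydroxyurea crp3 was at 2.36, 18.9 and 95.3 CPM (lowest, median and highest) in TU and at 0.706, 5.09 and 8.28 CPM in RW. TU was above the others by 1.71 on the log2 scale (SE 0.38, adjusted p = 0.00192) and RW was at −1.48 (SE 0.45, adjusted p = 0.0215). crp2 was at 1.26 in TU (SE 0.40, adjusted p = 0.047) and at −1.66 in RW (SE 0.47, adjusted p = 0.0126). The contrasts of AB and PET did not pass, with adjusted p from 0.134 to 0.851 for both genes. Without shallow larvae, adjusted p was 0.154 for crp2 in TU, 0.342 for crp2 in RW and 0.363 for crp3 in RW, and crp2 in TU also missed the threshold in DESeq2 (adjusted p = 0.0754). The tests over strains gave adjusted p = 0.000562 for crp3 and 0.000875 for crp2. At 1.3 and 6.6 mM adjusted p was at most 0.000167 for both genes.

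In the valproic acid experiment the strains did not keep 1 order. PET was below the others in 6 of 6 contrasts, of which 1 passed the test. That was crp3 at 1 µM, at −1.25 on the log2 scale (SE 0.42, adjusted p = 0.0111), with 42.8% of genes called. AB was below the others in 4 of 6 contrasts. It was above them in crp3 at 1 µM, by 1.16 (SE 0.34, adjusted p = 0.0283), with 3.64% of genes called. Over the alternatives adjusted p reached 0.0793 for PET and 0.0551 for AB. RW was above the others in crp2 at 1 µM, by 1.84 on the log2 scale (SE 0.46, adjusted p = 0.000733), and below them at 20 µM, at −1.51 (SE 0.62, adjusted p = 0.0475), where 34.7% and 32.5% of genes were called. The call at 20 µM was lost with log10 total count as a covariate (adjusted p = 0.408) and without shallow larvae (0.457). In crp3 RW was at 0.37 (SE 0.35, adjusted p = 0.423) at 1 µM and at −1.82 (SE 0.46, adjusted p = 0.000814) at 20 µM. WIK was above the others in 5 of 6 contrasts, of which 2 passed the test. In crp3 at 5 µM it was above them by 1.29 (SE 0.33, adjusted p = 0.0152), with 2.28% of genes called. The alternatives of that contrast are not given here. In crp2 at 20 µM WIK was above the others by 2.66 (SE 0.49, adjusted p = 0.000742), with 0.47% of genes called. That value was 1.53 (adjusted p = 0.305) without the WIK larva at 249 CPM. RW was at −1.22 (adjusted p = 0.104) without the same larva.

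The change between the lowest and the highest exposed dose differed between strains with valproic acid, for crp2 with adjusted p = 0.00466 and for crp3 with adjusted p = 0.00321 (edgeR F test of the interaction), where 4.62% of genes were called. Between 1 and 20 µM the median of crp2 went from 76.3 to 4.39 CPM in RW, from 74.0 to 17.8 in TU, from 27.1 to 8.83 in PET and from 13.3 to 5.88 in AB, and in WIK it was 17.7 and 18.9 CPM. The median of crp3 went from 64.5 to 1.40 CPM in AB, from 42.0 to 1.52 in RW, from 34.1 to 8.71 in WIK, from 29.3 to 9.37 in TU and from 19.5 to 5.37 in PET. Without the WIK larva at 249 CPM, adjusted p was 0.0347 for crp2 and 0.00427 for crp3. The same test gave adjusted p = 0.683 and 0.41 with hydroxyurea and 0.792 and 0.971 with warfarin, where 2.02% and 0.283% of genes were called. Whether the experiments differ in this respect was not tested.

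The level of crp2 in a larva followed that of crp3 in part. After the mean of each strain and dose was removed, Pearson's r between their log2 CPM was 0.39 over 160 larvae with valproic acid, 0.45 over 104 with hydroxyurea and 0.36 over 76 with warfarin. By strain it was 0.46 to 0.58 in TU, 0.53 to 0.79 in PET, 0.50 in WIK and −0.15 to 0.21 in AB, and in RW it was 0.69, 0.26 and 0.09 in the 3 experiments. The points share libraries and depth, and no p is given.

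Over the 48 groups of strain and dose, with the mean of each experiment removed, the patterns of crp2 and crp3 had r = 0.81. Among 18642 genes with a mean of at least 1 CPM, crp3 was second in likeness to crp2 and crp2 was the third for crp3. The unannotated BX001030.1 was first for crp2 (r = 0.83), followed after crp3 by si:ch73-44m9.5 (0.76), BX571960.2 (0.76) and si:dkey-21e2.10 (0.74). For crp3 they were BX571960.2 (0.83), si:ch73-44m9.5 (0.81), lrp2b (0.80), a relative of the endocytic receptor megalin, and rbp2a (0.77), a retinol-binding protein of enterocytes in mammals. The 48 groups include those of untreated larvae, whose levels led to the choice of crp2 and crp3. The r between crp2 and crp3 and their ranks are therefore not independent of that choice. The groups also share strains and clutches, so these values are descriptions.

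Other acute phase genes moved in both directions. Of 14 tested acute phase genes, 4 rose and 3 fell at 20 µM valproic acid, 7 rose and 3 fell at 33 mM hydroxyurea, and 6 rose and 2 fell at 300 µM warfarin. Over all genes 20.5%, 22.8% and 9.6% were called at these doses in either direction. By direction, 8.99%, 10.3% and 4.64% were called higher and 11.5%, 12.5% and 4.95% lower. These shares are the background of every list count of a rise or fall at these doses that follows. Their median log2 fold changes were 0.12, 0.30 and 0.17, against 0.09, 0.02 and 0.00 over all genes. hp, which codes for the haemoglobin scavenger haptoglobin, fell by 0.37 on the log2 scale (adjusted p = 0.00702) with valproic acid and by 0.45 (adjusted p = 0.000339) with warfarin, and was at 0.12 (adjusted p = 0.433) with hydroxyurea. c9, a pore-forming component of complement, rose by 0.44 (adjusted p = 0.0049) with valproic acid and by 0.68 (adjusted p = 5.64e-06) with hydroxyurea. With warfarin it was at −0.07 (adjusted p = 0.788).

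Genes of the signals that reach the liver in inflammation also moved in both directions. Of 17 tested with valproic acid 6 rose and 3 fell, of 17 with hydroxyurea 3 rose and 1 fell, and of 14 with warfarin 1 rose and 0 fell, at the highest doses, where median log2 fold changes were 0.22, 0.00 and 0.02. il6st, the shared signalling receptor of the interleukin family that drives acute phase genes in mammals, rose by 0.38 (adjusted p = 2.55e-05) with valproic acid and by 0.36 (adjusted p = 0.000609) with hydroxyurea. With warfarin it was at 0.00 (adjusted p = 0.996). cebpd, a transcription factor of the same response, fell by 0.50 (adjusted p = 0.000756) with valproic acid, and was at −0.26 (adjusted p = 0.151) with hydroxyurea and −0.24 (adjusted p = 0.342) with warfarin. Of the classical complement genes 1 of 6 rose and 1 fell with valproic acid, 2 of 4 rose with hydroxyurea and 1 of 3 rose with warfarin. Of these c4b rose in all 3 experiments, by 0.75, 1.89 and 1.04 (adjusted p = 0.000841, 1.28e-11 and 0.00203), while c4 had adjusted p between 0.123 and 0.852.

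At the highest doses, more markers of digestive organs were called lower than higher. Of 13 hepatocyte markers 9 fell and 2 rose at 20 µM valproic acid, 8 fell and 1 rose at 33 mM hydroxyurea, and 7 fell and 2 rose at 300 µM warfarin, with median log2 fold changes of −0.76, −0.31 and −0.21. The summed level of the list was 4551 to 16669 CPM at 0 and 3250 to 12150 CPM at 20 µM valproic acid. It was 7907 to 13478 and 7441 to 14775 CPM with hydroxyurea, and 9472 to 14951 and 9775 to 15335 CPM with warfarin. apoa2, the most abundant of the list and an apolipoprotein of liver and yolk syncytial layer, was at 0.05, −0.08 and 0.12 (adjusted p = 0.787, 0.437 and 0.17), and apobb.1 rose in all 3, by 0.38, 0.43 and 0.63 (adjusted p = 0.00357, 2.06e-05 and 8.75e-13).

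Of the exocrine pancreas markers 8 of 9 fell with valproic acid, 8 of 8 with hydroxyurea and 8 of 8 with warfarin, and 0 rose. Their summed level went from 954 to 18756 CPM at 0 to 174 to 1061 CPM at 20 µM, from 2895 to 7823 to 141 to 1843 CPM at 33 mM, and from 2432 to 10909 to 563 to 3605 CPM at 300 µM. prss1, a trypsin, fell by 4.43, 2.60 and 1.68 on the log2 scale (adjusted p = 8.64e-56, 4.20e-26 and 7.33e-17). Of the intestine markers 5 of 7, 6 of 6 and 1 of 6 fell and 0 rose, with summed levels of 1863 to 5998 CPM at 0 and 1277 to 3538 CPM at 20 µM, 2163 to 4698 and 1142 to 2419 CPM with hydroxyurea, and 2849 to 6152 and 2003 to 5135 CPM with warfarin. Of 6 neutrophil markers 2 fell with valproic acid, 4 rose with hydroxyurea and 1 rose with warfarin. Of the macrophage markers 1 of 7 rose and 1 fell with valproic acid and 3 of 5 rose with hydroxyurea. lyz, the lysozyme of neutrophils and macrophages, rose by 1.41 (adjusted p = 1.37e-15) with hydroxyurea. At the lower doses neither crp gene passed the test, which does not show that their levels were unchanged. There 8 of 9 exocrine pancreas markers fell at 5 µM valproic acid, beside 2.37% of all genes called and 2.17% called lower. At 150 µM warfarin 8 of 8 of these markers fell, beside 3.18% of all genes called and 1.44% called lower. Their median log2 fold changes were −0.91 and −0.98. At 1 µM valproic acid and at 1.3 and 6.6 mM hydroxyurea 0 of these markers were called. The part of the listed cell types in the levels of crp2 and crp3 was not tested.

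Larva to larva within groups, the median r of either gene with the genes of a list was between −0.18 and 0.32. The median r of crp2 with hepatocyte markers was 0.20, 0.19 and 0.02 in the 3 experiments and that of crp3 was 0.31, 0.19 and 0.05. With acute phase genes the medians were 0.11, 0.14 and 0.02 for crp2 and 0.22, −0.04 and −0.01 for crp3. With exocrine pancreas markers they were 0.22, 0.18 and −0.01 for crp2 and 0.25, 0.32 and 0.24 for crp3. For crp3 the r of every pancreas marker was above 0, while for crp2 the lowest was −0.05, −0.09 and −0.16. The r of single hepatocyte markers with crp3 ran from −0.005 to 0.51, from −0.07 to 0.64 and from −0.12 to 0.14. Among exposed larvae 9 to 11 of 15 acute phase genes differed between strains with valproic acid, beside 33.7% to 49.1% of all genes. With hydroxyurea it was 3 to 8 of 14, beside 16.1% to 26.1%. With warfarin it was 5 of 14 and 11 of 14, beside 8.77% and 6%. Beside the same shares, hepatocyte markers differed in 9, 10 and 8 of 13 at 1, 5 and 20 µM valproic acid. The counts were 13, 5 and 11 of 13 at 1.3, 6.6 and 33 mM hydroxyurea. With warfarin they were 7 and 10 of 13 at 150 and 300 µM. In the same order, exocrine pancreas markers had 5, 1 and 4 of 9, then 6, 6 and 8 of 8, then 0 and 8 of 8. crp7, the only other short pentraxin that could be tested, and only with hydroxyurea, differed between strains at 6.6 and 33 mM (adjusted p = 0.0207 and 0.0127) and had adjusted p = 0.899 at 1.3 mM. It had at most 28 counts in a larva and passed the filter in the fit of group means, but not in that of dose over strains. A gene can enter the fit of group means through few larvae, so these strain differences are not independent of the filter.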

How the data were processed

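RNA of single whole larvae was read from the 3′ end (Lasy-Seq). The values deposited by the authors are estimated counts without normalization, in 1 table. Genome build GRCz11 and Seurat 5.1.0 are named in the submitters' processing notes, and the aligner and counter are not given in the sources used here. Of the values, 52 in 34 genes were not whole, 0 of them in crp2 or crp3, and all were rounded.

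Each experiment was fitted alone in edgeR 4.0.16 (R 4.3.3) with TMM normalization, filterByExpr (minimum count 10, minimum total 15) and the quasi-likelihood F test, with Benjamini-Hochberg adjustment over all tested genes and a threshold of 0.05. Dose over strains used strain and dose as terms. Dose within a strain, a strain against the mean of the others, the F test over strains and the interaction used group means. Correlations used log2 CPM with a prior count of 2. Total counts per larva (124136 to 14186334) set the precision. Scripts were tested on simulated data. Strains, doses and larva numbers came from the labels.

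The genes and gene lists were chosen with earlier results of these data known. Of each list the 2 genes with the highest mean CPM could be named, besides all detected pentraxins and the 5 genes most alike to each crp gene. Alternatives were DESeq2 1.42.0, its size factors, no filter, larva number as a block, log10 total count as a covariate, leaving out shallow larvae (total count below 0.5 times the median), and leaving out single larvae. Leaving out a strain or the WIK larva highest in crp2 at 20 µM valproic acid was added after the data were seen.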

Additional observations from a re-analysis of the deposited data

Results flagged for a closer look

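In 13 of 96 groups the highest larva stood apart from the others of its gene, strain and dose. The rule was the 95% limit of Dixon's test, used on CPM without a log. About 1 in 20 groups pass it by chance only where values follow a normal distribution, which was not checked. The 13 larvae are therefore not set against that rate. For crp2 these larvae were in RW at 0 mM hydroxyurea (74.7 CPM, next 16.7), in RW at 6.6 mM (43.8, next 15.9), in RW at 1 µM valproic acid (435, next 166), in AB at 5 µM (96.1, next 44.8), in WIK at 20 µM (249, next 70.2) and in RW at 150 µM warfarin (34.0, next 11.0). For crp3 they were in AB at 33 mM hydroxyurea (24.3 CPM, next 9.46), in TU at 33 mM (95.3, next 40.5), in PET at 0 µM valproic acid (52.7, next 24.5), in WIK at 1 µM (84.2, next 48.2), in RW at 5 µM (97.0, next 41.0), in PET at 150 µM warfarin (184, next 95.2) and in TU at 150 µM (112, next 68.2). In all 13 it was the highest larva.

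The change between 1 and 20 µM valproic acid differed between strains for crp2 (adjusted p = 0.00466) and crp3 (adjusted p = 0.00321) in edgeR's F test of the interaction. Over the alternatives adjusted p was 0.00278 to 0.0361 for crp2 and 0.00120 to 0.00543 for crp3.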

How the results depend on the processing

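Under the alternatives 538 log2 fold changes of crp2 and crp3 kept direction and side of the threshold, 26 lost and 10 gained their call, and 10 changed sign. Of the adjusted p-values of F tests 133 kept their side and 3 did not. The causes were not tested. Without shallow larvae (total count below 0.5 times the median), crp3 was 0.14 in TU against the others at 1 µM valproic acid and 0.24 in PET at 20 µM (0.0029 with log10 total count as a covariate), crp2 was −0.71 within AB at 33 mM hydroxyurea (1 larva was left in each of PET at 20 µM and AB at 33 mM, so these values rest on a lone larva assumed to vary like the other groups), and adjusted p of strain differences in crp3 was 0.0505 at 1 µM (0.0628 with the covariate) and 0.062 at 5 µM. Over strains, crp3 at 1 µM valproic acid was −0.16 without AB, crp2 at 6.6 mM hydroxyurea 0.0059 without RW, and without PET crp3 at 6.6 mM was −0.10, and crp2 and crp3 at 150 µM warfarin were 0.0017 and −0.22. At 300 µM warfarin crp3 was −0.81 without AB (adjusted p = 0.0547). Without its highest larva crp2 in WIK at 20 µM was −0.69. Leaving out single larvae gave, for crp2 and crp3, −1.64 to −0.97 and −1.71 to −0.87 in PET and −2.60 to −0.95 and −1.04 to −0.43 in RW at 33 mM hydroxyurea, and −2.75 to −1.61 and −2.28 to −1.52 in RW at 300 µM warfarin.

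Larva number as a replicate block pairs nothing by the labels. Same-numbered larvae correlated at a mean r of 0.00 in each experiment, with 0 numbers over 0.1, and 24 of 160, 19 of 104 and 8 of 76 larvae correlated best with their own number. With the block, crp3 in TU at 20 µM valproic acid was −1.48 (adjusted p = 0.0508) and crp2 in RW against the others −1.40 (adjusted p = 0.0588), and no other call tabulated for the genes changed.

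In larvae of median depth, 3 counts are 1.32 CPM, close to several levels at the highest doses. Counts of called genes over all genes at the highest doses over strains moved by less than 1.5 times. They were 3481 to 4610, 3170 to 4069 and 1220 to 1533, from 3721, 3432 and 1294. Those of the interaction ranged from 411 to 2455, 297 to 725 and 21 to 153. Counts for strain differences, by rising dose, ranged from 4066 to 12535, 3401 to 13528 and 1894 to 9983 with valproic acid. As reported they were 9276, 10352 and 7109. With hydroxyurea they were 1484 to 3568, 1220 to 4952 and 2188 to 5351, from 2780, 4187 and 4507. With warfarin they were 486 to 1911 and 689 to 1347, from 1300 and 889.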
